A study of Mus musculus with 2 samples.

Results

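The Z-disc anchors the thin filaments of neighbouring sarcomeres in heart muscle, and the 10 genes described here encode its scaffold and stretch-responsive proteins: Ldb3, Pdlim3, Pdlim5, Synpo2l, Nebl, Tcap, Myoz2, Csrp3, Ankrd1 and Ankrd23. They are given as a list of gene symbols with no threshold on a measured value, and are 10 of the 55536 annotated genes in the deposited tables. All 10 matched a gene, and all 10 had a mean level of at least 1 TPM (a unit in which counts are corrected for transcript length and scaled to the same total in each library). The study sequenced total RNA from the heart of 14-day-old female B6CASTF1/J mice, F1 animals of a cross between the strains C57BL/6J and CAST/EiJ. It holds 1 group of 2 libraries, replicate 1 and replicate 2, each from 300 ng of starting RNA and with added ERCC spike-ins. The labels number the libraries as biological replicates 1 and 2. The tissue label of replicate 1 names 3x Females and that of replicate 2 a single numbered female, while both carry 1 donor identifier. The spread between the 2 libraries may therefore be partly technical, and replicate 1 may be a pool of animals. No treatment, genotype or time is compared, and no test between groups was possible. Values are given for each library, with mean ± SD (n = 2), and differences are read by rules of size.

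In the Z-disc, alpha-actinin crosslinks actin filaments, and titin reaches from there into the sarcomere. Ldb3, Pdlim3 and Pdlim5 bind alpha-actinin through an N-terminal PDZ domain. The longer forms of Ldb3 and Pdlim5 end in LIM domains, zinc-binding modules that dock other proteins. Synpo2l binds alpha-actinin and filamin, nebulette (Nebl) binds actin along the thin filament at the Z-disc, and telethonin (Tcap) caps the end of titin. Myozenin 2 (Myoz2, also calsarcin-1) holds the phosphatase calcineurin at the Z-disc. Muscle LIM protein (Csrp3) and the ankyrin repeat proteins Ankrd1 and Ankrd23 are studied as links between load on the myocyte and transcription. Variants in several of these genes are known in inherited cardiomyopathy.

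The expected counts (reads assigned to genes, with reads that match several genes divided between them) summed to 36197643 and 34358598 over annotated genes in replicates 1 and 2. A gene with a count of 0 could still have up to 3 counts, which is 0.0829 and 0.0873 CPM (counts scaled by the library's total and not by length). Cardiomyocyte markers were abundant in both libraries, all 6 of 6 detected, with summed TPM of 34966 and 37032. Of 9 skeletal muscle markers, 1 reached a mean of 1 TPM, and their summed TPM was 4.32 and 4.90. Myh1, Myh2 and Myh4 had 0 counts in replicate 1 but 63.3, 29.4 and 18.3 in replicate 2. Tnni2, the marker that reached 1 TPM, went the other way with 59 and 43 counts, as did Actn3 with 20 and 12. The remaining skeletal muscle markers had more counts in replicate 2. The libraries differed in some non-myocyte or regional markers: the 5 airway and lung markers summed to 140.75 TPM in replicate 1 and 9.22 in replicate 2 (Scgb1a1 was at 97.57 and 5.96, and Scgb3a2 at 41.41 and 2.35), and the 2 brown fat markers to 65.1 and 87.66. The 4 atrial markers summed to 1356 and 1114 TPM, and the 3 ventricular markers to 7044 and 7792. The 5 smooth muscle markers summed to 290.61 and 302.14 TPM, the 4 fibroblast markers to 933.08 and 899.43, and the 3 endothelial markers to 202.03 and 187.87. The tables come in 2 versions, called here the first quantification (column names as RSEM writes them, used unless stated otherwise) and the second quantification (column names as kallisto writes them).

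Both of the following sequence features join members of the set and are shown first because the transcript results turn on them. All positions are those of the mouse assembly mm10 in the GENCODE M21 annotation, and the sequences are read from its transcripts, 5′ to 3′. The first 90 coding bases of Ldb3, Pdlim3, Pdlim5 and Synpo2l lie in the part that encodes the start of the PDZ domain. The capitals mark the letters CCNTGGGGNTTCNGNCTNNNNGGNGG, a pattern written down after these 4 sequences had been read.
Ldb3-203: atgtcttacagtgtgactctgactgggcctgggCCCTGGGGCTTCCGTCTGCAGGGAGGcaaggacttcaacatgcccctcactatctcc
Pdlim3-201: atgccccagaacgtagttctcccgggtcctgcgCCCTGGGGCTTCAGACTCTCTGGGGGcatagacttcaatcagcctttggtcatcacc
Pdlim5-205: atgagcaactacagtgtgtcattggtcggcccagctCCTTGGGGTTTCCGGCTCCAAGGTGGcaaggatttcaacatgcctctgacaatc
Synpo2l-201: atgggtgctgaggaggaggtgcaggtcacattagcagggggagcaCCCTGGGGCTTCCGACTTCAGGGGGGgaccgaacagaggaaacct
Counted from the A of the start codon, the pattern began at base 34 in Ldb3 and Pdlim3, at base 37 in Pdlim5 and at base 46 in Synpo2l. On the sense strand of protein-coding transcripts it occurred in 8 of 21877 genes (0.0366%). These were the 4 members above and Pdlim1, Pdlim4, Pdlim7 and Synpo2, which are relatives of the same PDZ genes. Synpo2l also has a transcript, Synpo2l-203, that starts in an intron downstream of the PDZ exons. Its coding sequence opens differently and does not hold the pattern.
Synpo2l-203: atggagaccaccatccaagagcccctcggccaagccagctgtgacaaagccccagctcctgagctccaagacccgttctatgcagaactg

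The second feature is a short last coding exon that Ldb3 and Pdlim5 share. Transcripts that use it stop there and lack the exons that encode the LIM domains further downstream. It lies at chr14:34561788-34561881 on the minus strand in Ldb3 and at chr3:142303331-142303421 on the minus strand in Pdlim5, without the stop codon. In the lines below, capitals mark bases that are identical in an end-to-end alignment of both exons.
Ldb3-203: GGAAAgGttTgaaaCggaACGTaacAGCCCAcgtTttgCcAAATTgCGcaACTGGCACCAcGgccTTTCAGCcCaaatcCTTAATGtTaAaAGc
Pdlim5-205: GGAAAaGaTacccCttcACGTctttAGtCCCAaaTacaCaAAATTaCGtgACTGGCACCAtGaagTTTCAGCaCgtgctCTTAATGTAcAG
Of 89 aligned pairs of bases 57 were identical (64.0%), with a longest identical run of 10 bases. The exons are 94 and 91 bases long.

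Members ranged from 14.9 to 727 TPM in mean level, a ratio of 49.0 between the highest and the lowest. The median over the 10 members was 242.6 TPM in replicate 1 and 241.3 in replicate 2 (mean 241.9 ± 0.894 SD, n = 2). The median of all 11720 nuclear protein-coding genes with a mean of at least 1 TPM was 9.66 and 9.79. Together the members took 0.322% and 0.337% of the expected counts of annotated genes. In bulk tissue, fewer cells of a type and less RNA per cell cannot be told apart, so these are levels of the whole tissue.

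Among the scaffold genes, Ldb3 (cypher or ZASP, chr14:34526603-34588682, minus strand) had 367.15 TPM in replicate 1 and 351.97 in replicate 2, from 26583 and 25280 expected counts. These lay within 1.2-fold of each other, and the ratio of its CPM between the libraries was 1.00 (exact 95% interval 0.985 to 1.02, counting error only). Pdlim5 (ENH, chr3:142239590-142395696, minus strand), which also docks protein kinases, had 283.66 and 260.90 TPM. Transcripts with the LIM exons held a mean of 7.1% of its TPM, as given below. Pdlim3 (ALP, chr8:45885461-45919548, plus strand) was the lowest member, with 16.72 and 12.99 TPM from 749 and 584 expected counts. Synpo2l (CHAP, chr14:20658946-20668354, minus strand) had 39.46 and 54.44 TPM and was thus higher in replicate 2. Nebl (nebulette, chr2:17343909-17731464, minus strand) had 201.49 and 221.72 TPM.

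Tcap (telethonin, chr11:98383811-98384953, plus strand) had 404.72 and 401.09 TPM, the smallest difference between the libraries of the members in TPM. Its CPM ratio between replicate 2 and replicate 1 was 1.01 (0.979 to 1.04). Myoz2 (chr3:123006206-123035015, minus strand) was the highest member with 747.11 and 707.31 TPM, rank 58 of the expressed nuclear protein-coding genes. Csrp3 (chr7:48830398-48848033, minus strand) followed with 618.35 and 662.06 TPM, rank 69. Both stood above the other members in each library, with Myoz2 above Csrp3 in each in the first quantification. Between the libraries, replicate 2 minus replicate 1, Myoz2 differed by -0.10 and Csrp3 by 0.07 in log2.

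Of the stretch-responsive ankyrin repeat genes, Ankrd1 (CARP, chr19:36111961-36120099, minus strand) had 70.85 TPM in replicate 1 and 110.38 in replicate 2. Ankrd23 (DARP, chr1:36530188-36536883, minus strand) had 42.26 and 54.17 TPM. Both were higher in replicate 2. Ankrd23 shares its locus with Gm42417, a protein-coding gene annotated on the same strand at chr1:36530193-36539429, which took 114.43 and 103.25 expected counts against 2221.57 and 2667.75 for Ankrd23. Reads of these overlapping genes may have been divided between them, so the level of Ankrd23 is less certain.

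**Figure D1:**
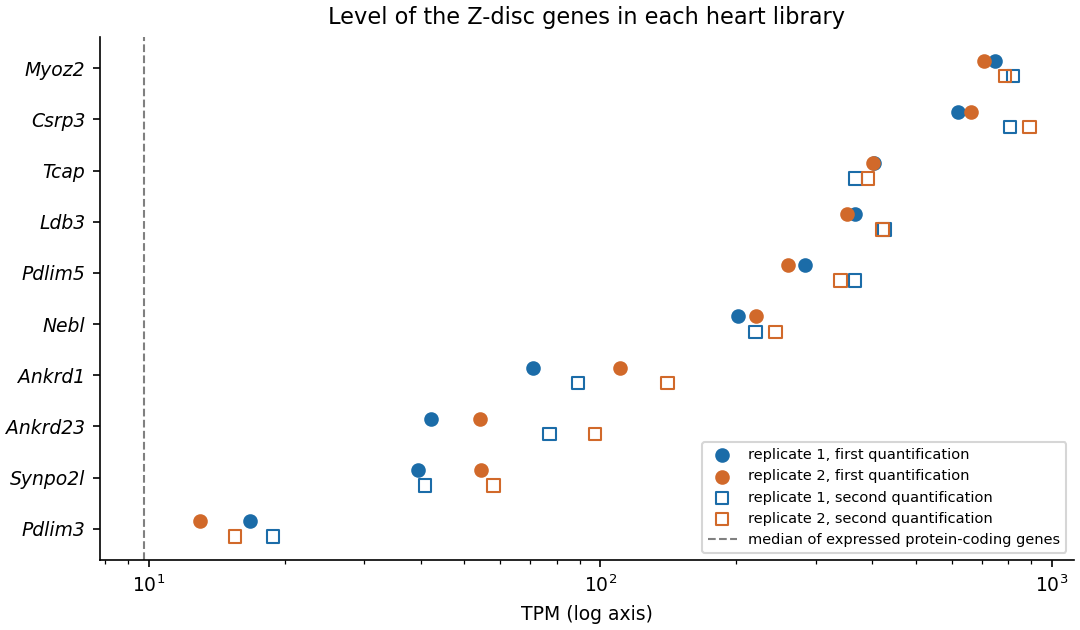
TPM of the 10 genes (horizontal log axis) in replicate 1 and replicate 2, with filled circles for the first and open squares for the second quantification. The dashed line is the median of expressed nuclear protein-coding genes, 9.77 TPM, and all 10 genes lie to its right, from Pdlim3 at 14.9 to Myoz2 at 727 TPM in the first quantification.

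In order of mean level the members ran Myoz2, Csrp3, Tcap, Ldb3, Pdlim5, Nebl, Ankrd1, Ankrd23, Synpo2l and Pdlim3. In 8 of the 9 pairs of neighbours in this order the library values did not overlap. The exception was Ankrd23 and Synpo2l, whose means differed by a factor of 1.03 and whose order crossed between the libraries. In the second quantification 6 of the 10 members kept their place. Csrp3 stood above Myoz2 there (850.6 against 804.1 TPM), and Ldb3 above Tcap (424.1 against 379.6 TPM). Ankrd23 was 77.22 and 97.28 TPM in the second quantification, above both values of the first.

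The distance of a member from its relatives differed widely between families. Myoz1 and Myoz3 are the myozenins of fast skeletal muscle. Myoz2 was higher than Myoz1 by 10.20 ± 1.10 in log2 TPM (SD, n = 2), with 11 and 16 expected counts of Myoz1. Myoz3 had 0 counts in both libraries in the first quantification. With Myoz3 set to a floor of 3 counts per library, Myoz2 was there at least 23361-fold and 21351-fold higher in TPM. The second quantification gave Myoz3 0.0726 and 0.0517 TPM, against 821.0 and 787.2 for Myoz2. These bounds therefore hold in the first quantification only. Csrp3 exceeded Csrp1, the smooth muscle relative, by 4.62 ± 0.0028 and Csrp2 by 3.96 ± 0.06 in log2 TPM. Without correction for length, in CPM, the log2 ratio to Csrp1 was 3.48. Csrp1 was at 25.22 and 26.93 TPM and Csrp2 at 38.75 and 43.84 TPM.

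In the PDZ and LIM family, Ldb3 was higher than Pdlim5 by 0.40 ± 0.04 in log2 TPM, and Pdlim5 was higher than Pdlim7 by 3.66 ± 0.05. Pdlim3 went the other way. It was lower than Pdlim1 in both libraries, with a log2 ratio of -2.09 ± 0.36 in TPM and -1.19 in CPM, Pdlim1 being at 59.77 and 66.19 TPM. Of the genes that carry the shared PDZ pattern, Ldb3 was the highest in mean TPM (359.6) and Pdlim4 (14.6) and Pdlim3 (14.9) were the lowest.

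Nebl exceeded Neb, the giant nebulin of skeletal muscle, by 7.24 ± 0.50 in log2 TPM (5.69 in CPM), and Lasp1, an actin-binding relative with a LIM domain, by 3.30 ± 0.05. Neb had 294 and 477 expected counts, 1.04 and 1.87 TPM. Nrap, a relative with nebulin repeats, stood nearer to Nebl, at 91.72 and 92.51 TPM. Ankrd2, the skeletal muscle relative of Ankrd1, had 0 and 1 counts. The counts of Ankrd1 and Ankrd2 pooled over both libraries, each divided by effective length, gave a ratio of 5035 with a 95% counting interval of 903 to 198896. Ankrd1 was above Ankrd23 by 0.89 ± 0.20 in log2 TPM, but by 0.37 in the second quantification. Synpo2l was above Synpo2, a relative found in smooth and striated muscle, by 0.77 ± 0.34. Synpo, synaptopodin itself, was at 30.30 and 26.74 TPM. In CPM, with no correction for length, the mean log2 ratio of Synpo2l to Synpo2 was -0.0110, so its direction depends on the unit. Of the 10 pairs with a log2 ratio, the first named gene was higher in both libraries in 9, and all 10 kept their sign in the second quantification.

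**Figure D2:**
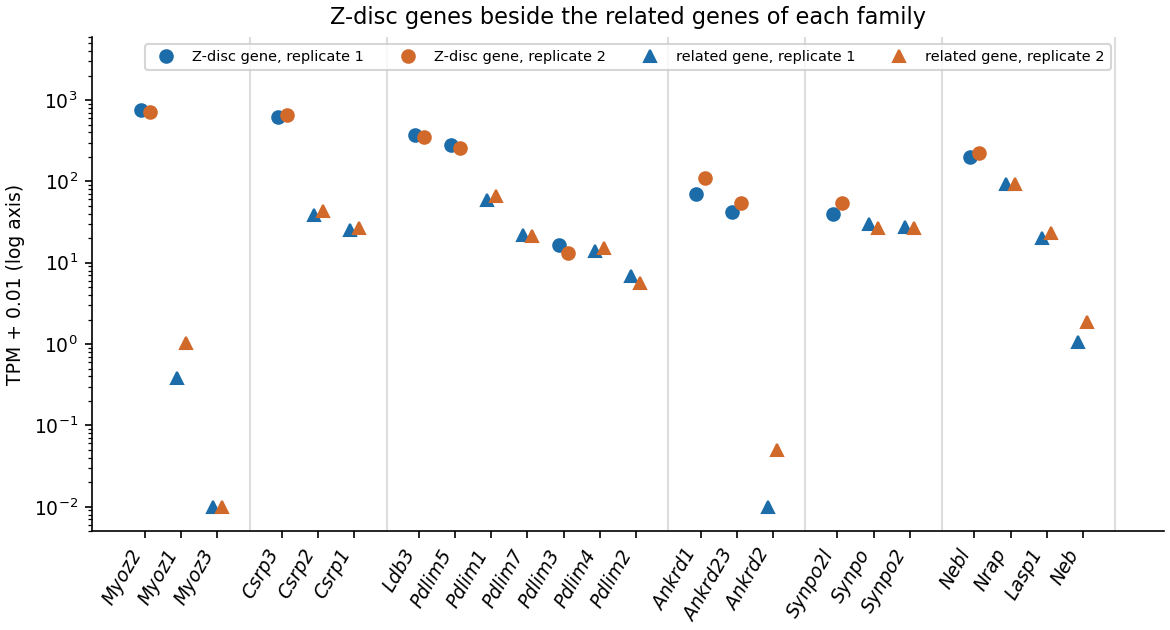
TPM of each member (circles) and of the related genes of its family (triangles) on a log axis, with a small constant added so that 0 can be drawn, in replicate 1 (blue) and replicate 2 (orange). Myoz1, Myoz3, Ankrd2 and Neb lie far below the member of their family, whereas Pdlim3 lies below Pdlim1.

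The related genes and the wider Z-disc were described from lists. Of 14 relatives, 11 reached a mean of 1 TPM, and their median TPM was 20.9 and 22.1 in the libraries. Of 27 binding partners and other Z-disc genes, 26 matched a gene and all 26 reached 1 TPM, with library medians of 52.4 and 52.5 TPM. The most abundant were Ttn (titin) at 1095.79 and 1005.31 TPM, Actn2 (the alpha-actinin of cardiac muscle) at 758.05 and 757.65 TPM, Fhl2 (a LIM protein) at 726.03 and 756.48 TPM, and Cryab (a small heat shock protein) at 559.34 and 583.80 TPM. Myoz2 and Csrp3 were thus within the range of the most abundant partners on the TPM scale.

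The only contrast in the design is that between the libraries, and it was read by 2 rules applied to the difference in log2(TPM + 1) after the median difference over genes, 0.026, was removed. The larger rule asked for a 2-fold difference, an average of 50 or more expected counts, and no overlap of the deposited intervals. It held for 0 of 10 members and for 0.349% of the 12876 genes with enough counts. The smaller rule asked for 1.2-fold with the same minimum count. It held for 4 of 10 members: Pdlim3 was higher in replicate 1 (1 of 10, against 9.65% of genes), and Ankrd1, Ankrd23 and Synpo2l were higher in replicate 2 (3 of 10, against 7.28% of genes). In either direction the smaller rule held for 16.9% of the genes. Among the 4213 nuclear protein-coding genes within the members' range of TPM it held for 10.5%, and for 3.89% in the direction of replicate 2. The deposited intervals of the libraries did not overlap for 9 of 10 members, all but Tcap, against 12.1% of the genes and 20.7% of those within the members' range of TPM. These intervals were compared as deposited, without removing the median difference. Ldb3 was among the 9 although its CPM ratio was 1.00 (0.985 to 1.02). TPM is corrected for length and CPM is not, and the effective length of Ldb3 was 2575.67 in replicate 1 and 2646.64 in replicate 2. High counts make the intervals narrow, and they hold no spread between animals.

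Ankrd1 had the largest difference of the members. Its log2 difference, replicate 2 minus replicate 1, was 0.61, a factor of 1.52, and its CPM ratio was 1.57 (1.51 to 1.64). Synpo2l followed with 0.43 in log2 and a CPM ratio of 1.39 (1.33 to 1.44), and Ankrd23 with 0.32 and a ratio of 1.27 (1.196 to 1.34). Pdlim3 differed by -0.37, with a CPM ratio of replicate 1 over replicate 2 of 1.22 (1.09 to 1.36). The other 6 members lay within -0.15 and 0.11 in log2. Of the 9 marker lists, 5 had a higher summed TPM in replicate 2: cardiomyocyte, skeletal muscle, smooth muscle, brown fat and ventricular. The other 4, fibroblast, endothelial, airway and lung, and atrial, had it in replicate 1, with the sums given above. In the smooth muscle list Acta2 and Smtn were higher in replicate 2, but Myh11, Tagln and Cnn1 in replicate 1. Tnni2 and Actn3 (skeletal muscle), Col1a1 (fibroblast) and Sftpc (airway and lung) also went against the sum of their list. The part of tissue composition in the differences of the members was not tested. The same 4 members passed the smaller rule, and none the larger, under each scaling, pseudocount, count minimum and quantification tried.

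**Figure D3:**
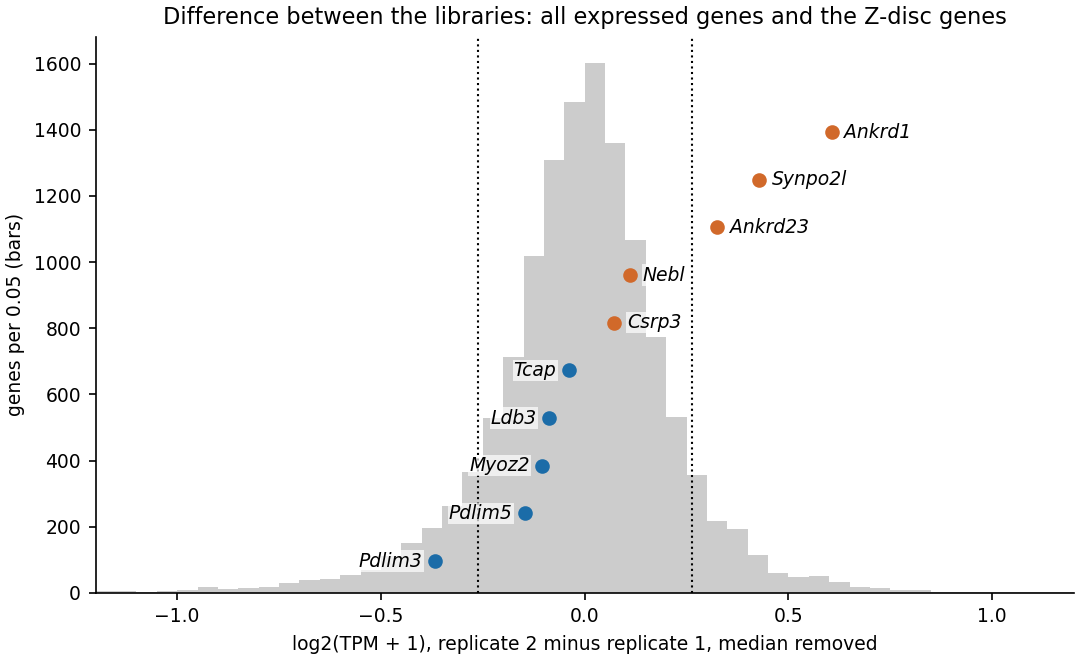
Difference in log2(TPM + 1), replicate 2 minus replicate 1 with the median removed, for genes with a mean of at least 1 TPM (grey bars, number of genes per bin, leaving out 44 genes with larger differences) and for the 10 members (points, whose height only separates the names). The dotted lines mark 1.2-fold, and Pdlim3 lies beyond the left line while Ankrd23, Synpo2l and Ankrd1 lie beyond the right one.

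Genes known to respond to stretch or load did not all differ the same way between the libraries. Of 16 symbols 14 matched a gene and 12 reached 1 TPM. By the smaller rule Nppb, Egr1 and Ccn1 were higher in replicate 2, and Nppa and Fos in replicate 1. These genes are named because they passed the rule, after their values were seen. Nppb, which encodes the B-type natriuretic peptide, was at 31.14 and 59.76 TPM. Nppa, the atrial natriuretic peptide, was at 684.53 and 509.35 TPM. The remaining atrial markers Myl7, Myl4 and Sln were also higher in replicate 1, but within 1.2-fold. The ventricular markers were all higher in replicate 2. Of these Lbh passed the smaller rule, at 135.11 and 213.91 TPM, and Myl2 and Irx4 lay within 1.2-fold. Myh7 was at 915.10 and 894.63 TPM, Hspb7 at 317.98 and 300.96 TPM and Acta1 at 118.97 and 126.68 TPM, each within 1.2-fold. Among the partners, Xirp1 was higher in replicate 2, and Myot and Trim54 in replicate 1. Among the relatives, Neb was higher in replicate 2 and Pdlim2 in replicate 1. In the first quantification the skeletal muscle markers Myh1, Myh2 and Myh4 had counts in replicate 2 only. Tnni2 and Actn3 of the same list went the other way, Tnni2 with 59 and 43 counts and Actn3 with 20 and 12. The part of skeletal muscle in the value of Neb was not tested.

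The 10 members have 61 annotated transcripts, 20 of them with a mean share of at least 10% of the gene's TPM (the isoform percentage of the first quantification). A single transcript held 50% or more of the TPM in 8 of 10 members in each quantification, but not in the same 8. Synpo2l and Nebl fell short in the first, and Pdlim5 and Nebl in the second. Both quantifications agreed on the leading transcript of 8 members, all but Csrp3 and Ankrd23. Tcap has 1 annotated transcript, Tcap-201, with 501 coding bases. Myoz2-201, with 792 coding bases, held 93.9% ± 0.679 (SD, n = 2) and 95.6% in the second quantification. It is the only protein-coding transcript of Myoz2. For the other members the results below give the exons that tell the transcripts apart.

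Most Ldb3 transcripts carried the short end. Ldb3-203 and Ldb3-207, which finish at the short last exon printed above, held 67.36% and 65.90% of the gene's TPM (66.6% ± 1.03, SD, n = 2), and 64.3% in the second quantification. The 5 transcripts that go on to the LIM exons held 33.4% ± 1.03, and 35.7% in the second quantification. Since these are longer, with 1866 to 2169 coding bases against 864 to 981, they took 62.2% of the gene's expected counts. The share of molecules and the share of reads thus lead with different forms.

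A second choice lies in the middle of Ldb3. A 359-base exon at chr14:34576986-34577344 was in transcripts with 90.8% of the gene's TPM in the first quantification and 69.8% in the second. Alternative exons of 23 and 204 bases were in transcripts with 9.16% and 30.2% of it. The first quantification gave the long form to Ldb3-201, with the 359-base exon (28.2%), and the second to Ldb3-205, without it (27.0%). For Ldb3-203 the quantifications lay close, at 60.9% and 61.2%. The share of the long form that has the 359-base exon therefore depends on the quantification, and the 23-base exon is shown because it opens the alternative form. Capitals mark the exon, with 20 bases of its neighbours on each side.
Ldb3-207, 23-base exon: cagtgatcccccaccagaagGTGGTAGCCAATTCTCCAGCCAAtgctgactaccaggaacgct

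Pdlim5 carried the short end in nearly all of its TPM. Transcripts that finish at the short last exon held 92.20% and 93.31% (92.8% ± 0.785, SD, n = 2), and 93.4% in the second quantification. Those with the LIM exons held 7.10% ± 0.700, and 6.47% in the second. Pdlim5-205 led with 56.1% in the first and 32.4% in the second quantification, and Pdlim5-202 followed with 19.2% and 31.1%. In replicate 1 of the second quantification Pdlim5-202 led, with 31.4% against 30.5%. Pdlim5-204 held 14.7% and 13.5%. The transcripts are told apart by very short exons. A 15-base exon at chr3:142306284-142306298 was in 58.8% of the TPM and an 18-base exon at chr3:142304705-142304722 in 73.5%, against 48.8% and 62.3% in the second quantification. Both have a length that is a multiple of 3 and keep the reading frame. They are printed with capitals for the exon and 20 bases of its neighbours on each side.
Pdlim5-205, 15-base exon: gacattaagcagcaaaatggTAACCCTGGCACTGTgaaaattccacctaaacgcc
Pdlim5-205, 18-base exon: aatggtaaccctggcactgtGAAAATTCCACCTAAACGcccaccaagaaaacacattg
The start of Pdlim5 was less certain than its end. The upstream group of starts held 26.6% in the first and 51.5% in the second quantification, and the group 3846 bases downstream 73.3% and 48.4%.

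Pdlim3 led with Pdlim3-201, which held 77.70% and 87.72% in the libraries (82.7% ± 7.09, SD, n = 2) and 80.4% in the second quantification. It uses a 188-base exon at chr8:45908469-45908656, while Pdlim3-203 uses exons of 68 and 264 bases in its place and held 5.03% and 10.4%. Both encode the PDZ start and the same last exons. A transcript with a retained intron, Pdlim3-204, held 8.29% and 8.28%.

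**Figure D4:**
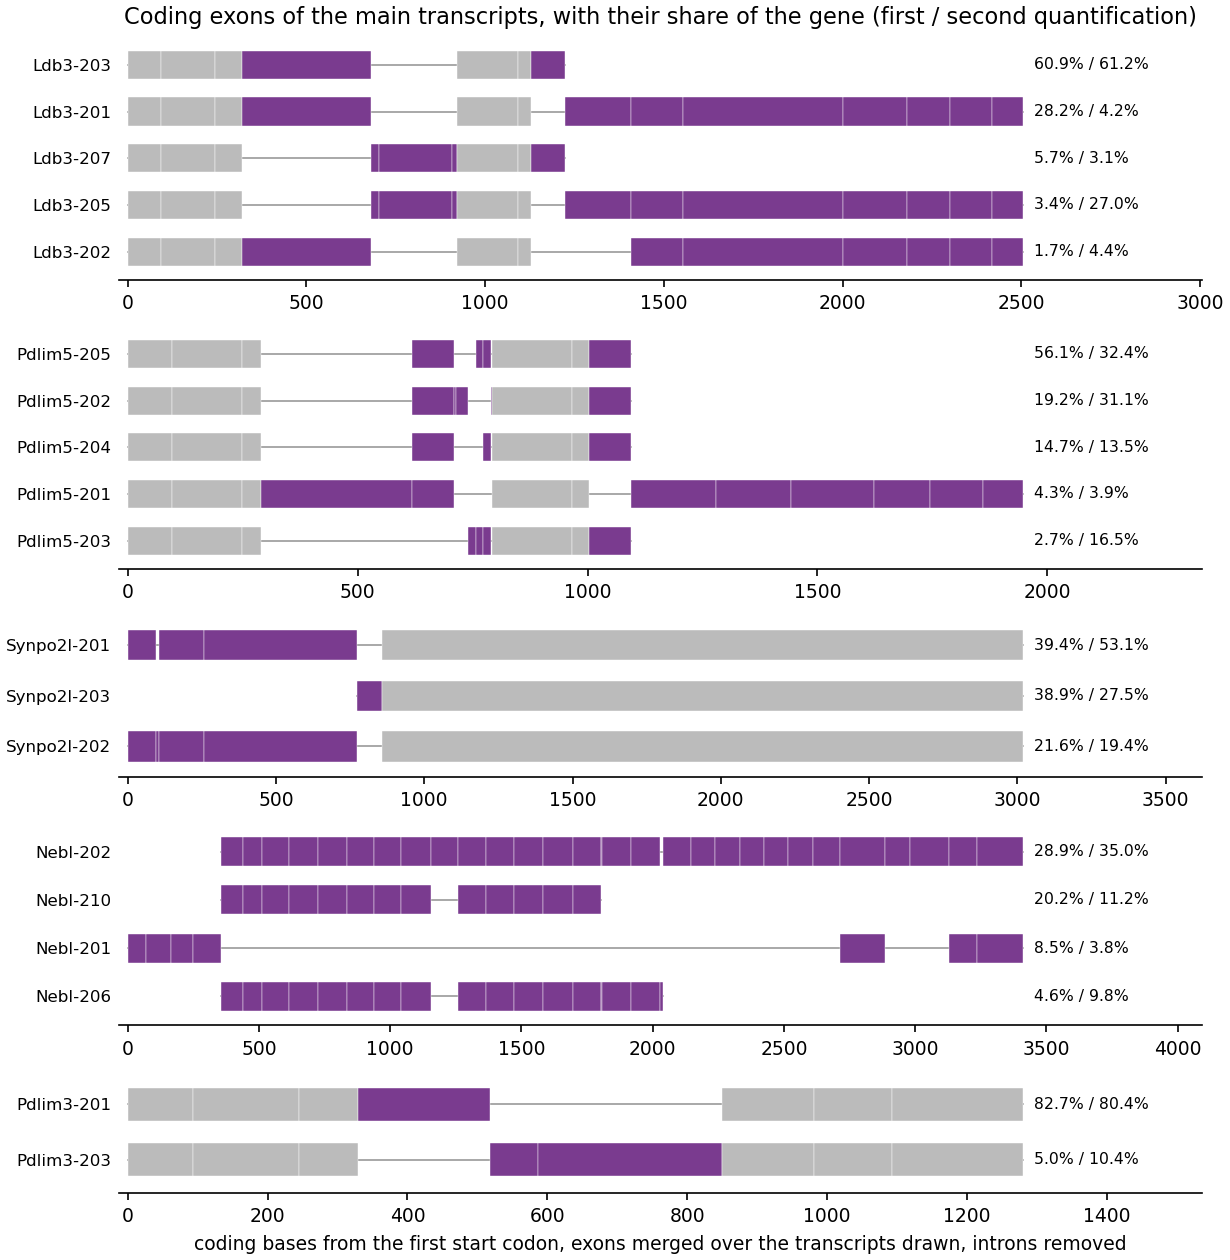
Coding exons of the main transcripts of Ldb3, Pdlim5, Synpo2l, Nebl and Pdlim3 to scale with introns removed (horizontal axis, coding bases), grey where every transcript drawn of that gene has the segment and purple where it does not, with the mean share of the gene's TPM in the first and second quantification at the right. The transcripts of Ldb3 and Pdlim5 with the largest shares stop at the short last exon and lack the block of LIM exons at the right.

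Synpo2l had a start on each side of its PDZ exons. Synpo2l-201 and Synpo2l-202 begin at the upstream start and encode the PDZ pattern, with 2925 and 2934 coding bases. Together they held 65.09% of the gene's TPM in replicate 1 and 57.06% in replicate 2 (61.1% ± 5.68, SD, n = 2). Synpo2l-203, which begins 3780 bases downstream and has 2247 coding bases, held 34.91% and 42.93%. The second quantification gave the upstream start 77.1% and 67.9%. In each quantification the share of the upstream start was lower in replicate 2, the library in which the gene was higher. In TPM, Synpo2l-203 was at 13.77 and 23.37 and Synpo2l-201 at 16.88 and 19.64. The libraries also disagreed on the leading transcript in the first quantification, Synpo2l-201 with 42.79% in replicate 1 and Synpo2l-203 with 42.93% in replicate 2.

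Nebl had 3 groups of starts with more than 1% of its TPM in both quantifications. The nebulette start, used by Nebl-202, Nebl-206, Nebl-207 and Nebl-210, held 54.77% and 53.85% (54.3% ± 0.651, SD, n = 2), and 57.3% in the second quantification. Nebl-202, with 3042 coding bases, held 28.9% and 35.0% by itself. The far upstream start is that of LIM-nebulette (also Lasp2), a form that joins a LIM domain to the last nebulette exons. Its group held 8.58% ± 0.834, and 3.88% in the second quantification. The group of short transcripts that begin within the gene at chr2:17390939-17391008, of which 1 in 4 is protein-coding, held 36.8% and 38.5% of the TPM but 4.74% of the expected counts. Within it Nebl-208, a noncoding transcript of 436 bases, held 28.4% and 30.2%. The nebulette start took 80.3% of the expected counts and the LIM start 14.7%.

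Csrp3 showed the widest gap between the quantifications. Csrp3-201 held 97.17% and 97.67% in the first, but 19.11% and 19.98% in the second, where Csrp3-202 led with 66.3%. Csrp3-202 held 0.825% in the first. Csrp3-201 and Csrp3-202 start 4382 bases apart and have the same coding length of 582 bases with the same coding sequence, so the quantifications differ on the start that was used and not on the coding sequence of these forms. The 2 together held 98.2% of the gene's TPM in the first quantification and 85.8% in the second. Csrp3-203, an incomplete model of 362 bases, held 1.07% and 13.6%.

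For Ankrd1 the leading transcript was Ankrd1-205, with 56.97% and 47.73% (52.4% ± 6.53, SD, n = 2) and 93.6% in the second quantification. Ankrd1-201 held 17.6% in the first and 0.783% in the second. Its exon at chr19:36114989-36115075 is 87 bases long, 12 bases shorter than the 99-base form of Ankrd1-205, with no change of reading frame. Ankrd1-203 and Ankrd1-204, annotated as targets of nonsense-mediated decay, held 19.7% and 8.62% in the first, and 0.871% and 3.15% in the second. The exon is printed with the 99 bases in capitals, of which the last 12 are absent from Ankrd1-201.
Ankrd1-205, 99-base exon: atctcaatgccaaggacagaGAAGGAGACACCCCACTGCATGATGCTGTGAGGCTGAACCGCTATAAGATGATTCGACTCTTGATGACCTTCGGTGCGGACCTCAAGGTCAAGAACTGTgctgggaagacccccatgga

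Ankrd23 led with Ankrd23-202, with 576 coding bases, at 73.1% ± 3.55 (SD, n = 2) in the first quantification and 34.4% in the second. The second led with Ankrd23-203, a transcript of 663 bases with no coding sequence, at 53.8%, which held 2.79% in the first. Ankrd23-204 held 24.1% in the first and 7.22% in the second. Ankrd23-201, which has the longest coding sequence at 918 bases, was at 0 in the first and 4.60% in the second. Protein-coding transcripts held 97.2% of the gene's TPM in the first quantification and 46.2% in the second.

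**Figure D5:**
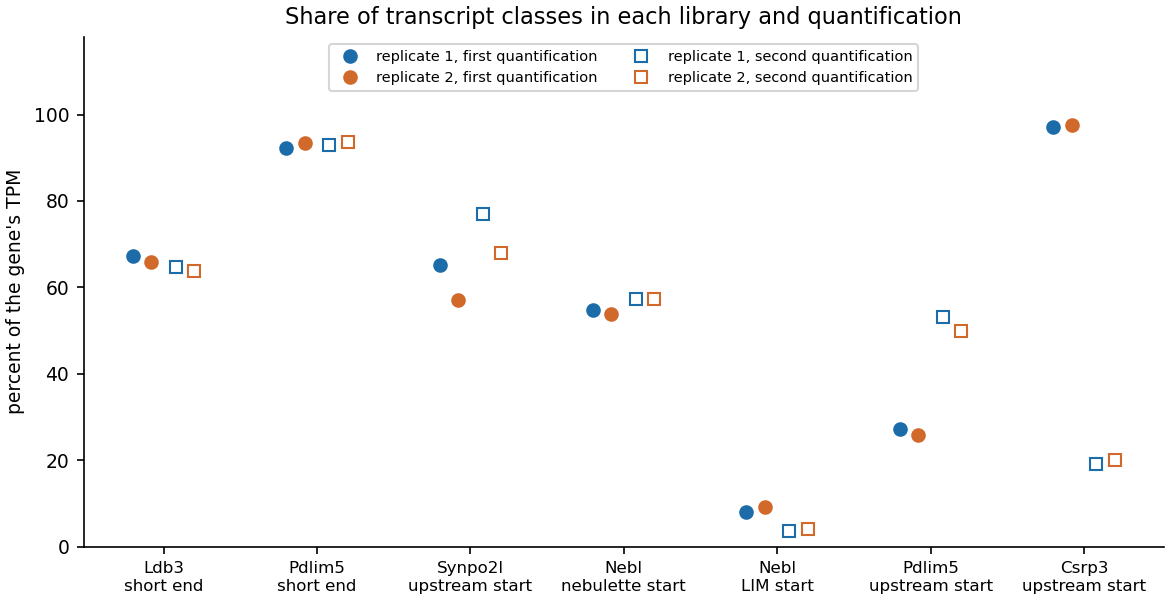
Percent of the gene's TPM (vertical axis) in 7 classes of transcript, with filled circles for the first and open squares for the second quantification and blue and orange for replicates 1 and 2. The short ends of Ldb3 (66.6% and 64.3%) and Pdlim5 (92.8% and 93.4%) lie close in both quantifications, whereas the upstream start of Csrp3 lies at 97.4% in the first and 19.5% in the second.

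The promoters of the members were searched for letters that muscle factors are known to bind, and for TATAAA, because Synpo2l uses 2 starts. The 3 members higher in replicate 2 were also looked up, and they were picked after their values were seen. Both libraries come from the same F1 strain. Of the RefSeq promoter windows (GRCm38.p6), 17 matched 9 members, and Tcap had no entry. Not every window lies at the start of an annotated transcript. For 1 Nebl window the nearest start was 60878 bases away, and for another 2194 bases. The Nebl window at 60878 bases holds GGAATG and is counted below. In the 250 bases before the start, on both strands, CTANNNNTAG (the frame of the MEF2 site) was in 3 of 17 windows against 3.20% of all 32851 windows. The CArG box of serum response factor was in 3 of 17 against 1.47%, GGAATG (the MCAT letters bound by TEAD factors) in 4 of 17 against 12.6%, TATAAA in 1 of 17 against 12.4%, and CANNTG (the E-box) in 11 of 17 against 66.2%. Windows of 1 gene can overlap, as both Ldb3 windows do. Both hold the same CArG box, so 1 site was counted in both windows. The Ldb3 match to CTANNNNTAG, CTATTCTTAG, has a C among the N letters and lies in the window that is not printed. A match is no proof of binding. The 120 bases before the start are printed for Myoz2, the highest member, for Ldb3 and for each Synpo2l start, with matches other than the E-box in capitals.
Myoz2, chr3:123034988-123035107, minus strand: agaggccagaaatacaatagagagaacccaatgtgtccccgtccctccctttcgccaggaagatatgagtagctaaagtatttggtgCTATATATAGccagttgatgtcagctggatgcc
Ldb3, chr14:34588682-34588801, minus strand: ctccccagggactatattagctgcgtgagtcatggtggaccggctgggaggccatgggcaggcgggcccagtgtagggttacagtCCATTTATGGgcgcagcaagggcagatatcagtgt
Synpo2l upstream start, chr14:20668355-20668474, minus strand: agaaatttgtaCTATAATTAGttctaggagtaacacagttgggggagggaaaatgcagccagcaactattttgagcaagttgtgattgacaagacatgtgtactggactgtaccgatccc
Synpo2l downstream start, chr14:20664575-20664694, minus strand: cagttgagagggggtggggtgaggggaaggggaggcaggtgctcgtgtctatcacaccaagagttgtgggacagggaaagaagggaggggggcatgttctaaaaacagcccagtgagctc
Myoz2 and the upstream start of Synpo2l each hold CTANNNNTAG in the printed bases, Ldb3 holds a CArG box, and the downstream start of Synpo2l holds none of the capitalised motifs. Of the 3 members higher in replicate 2, only Synpo2l had CTANNNNTAG. The Ankrd1 window and both Ankrd23 windows had no CTANNNNTAG, CArG box or TATAAA in the 250 bases. GGAATG was in the Ankrd1 window and in 1 Ankrd23 window, and also in the Pdlim3 window and 1 Nebl window. Pdlim3 was higher in replicate 1, and Nebl passed neither rule. A link between these letters and the differences between the libraries was not tested.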

How the data were processed

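Total RNA of mouse heart was measured in 2 libraries of 1 group. Build mm10 and GENCODE M21 are named in the deposited readme files. The aligner, the programs behind the tables and any step for CAST/EiJ alleles were not given in the sources used here. In the authors' first quantification, per the file headers, are expected counts (not normalized), TPM, posterior mean TPM with interval bounds whose level is not stated, a deposited score of precision, and each transcript's percent of its gene. The authors' second quantification holds estimated counts and TPM of transcripts, which were summed here over each gene.

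Differences were taken in log2(TPM + 1), less the median over genes averaging 1 TPM or more, and called only where expected counts averaged 50 or more. The rules of size were run on simulated counts that held counting error only, with a smaller pseudocount and intervals built from the counts. This run cannot show how often the rules call genes when libraries also differ beyond counting error. CPM and exact Clopper-Pearson 95% intervals came from expected counts of annotated genes (totals 36197643 and 34358598) and cover counting error only. Alternatives scaled by edgeR 4.0.16 (TMM) or DESeq2 1.42.0 size factors on rounded expected counts, under R 4.3.3. No deposited fold or ratio was used. Other steps ran under Python 3.11.15 (scipy 1.17.1, matplotlib 3.10.9, numpy 2.4.6, pandas 2.3.3).

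The members and lists were chosen with earlier results of these data known. Named are all members, their transcripts of at least 10% and those leading the second quantification, the 4 most abundant genes of each list, all genes of the pairs, and genes that meet the 2-fold rule. Genes past the 1.2-fold rule, and other transcripts, were named after their values were seen.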

Additional observations from a re-analysis of the deposited data

How the results depend on the processing

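The members' median level was 241.9 TPM. It was 293.1 in the second quantification, 237.8 with the posterior mean TPM and 562.5 with TPM rescaled over nuclear protein-coding genes, and 241.3 to 242.6 with 1 library left out. The rescaling moved all 10 levels by more than 1 SD, the second quantification 7 of 10 and the posterior mean 1 of 10. The number of members with a leading transcript of at least 50% was 8, and 7 to 8 with 1 library left out, since Ankrd1-205 holds 47.73% in replicate 2. The 4 members past 1.2-fold and the 0 past 2-fold were the same members under each alternative, while the calls over all genes went from 45 to 89 (2-fold, pseudocount 0.1) and from 2180 to 3994 (1.2-fold, no minimum count). All 10 differences between the libraries kept their sign except that of Tcap, -0.04 on the log2 scale and 0.04 in the second quantification, and both are within 1.2-fold. The log2 ratio of Synpo2l to Synpo2 was 0.77 in TPM and -0.0110 in CPM. Of the 10 log2 ratios 7 moved by more than 1 SD in CPM with the same sign. The share of the leading transcript moved by more than 1 SD in the second quantification for 7 of 10 members. No paired analysis was possible because the series has 1 group. With 2 libraries no spread between animals can be estimated reliably, and Csrp3-203 rests on few counts (51.8 and 48.1). The cause of the gaps between the quantifications was not tested.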
